A study of Mus musculus with 8 samples.

Results

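The integrin and laminin subunits were followed in epithelial cells of mouse gastric tumors with and without Yap1. The 32 genes were chosen by their symbols, 22 integrin chains and 10 laminin chains, out of 27179 entries in the count table, and 26 of them reached over 0.5 CPM, a unit that corrects each count for library size, in 6 libraries or more and were tested. Bulk RNA-seq was made from EpCAM+ cells sorted from antral gastric tumors of 18-week-old mice, 1 library per mouse. All 8 mice carried the gp130FF mutation, which drives gastric tumors through excess Stat3 signalling. The 4 control mice were labelled gp130FF; Yap1WT (Yap1WT), and the 4 others gp130FF; Yap1 flox/flox (Yap1KO).

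In the Yap1KO mice, the study deleted exon 3 of Yap1 with a tamoxifen-activated Cre recombinase driven by the promoter of Tff1, a gene of gastric mucous cells, so EpCAM+ cells without Tff1 activity may have kept the gene. The labels place all 8 mice 3 days after tamoxifen, whereas the study describes its Yap1WT cohorts as vehicle-treated littermates that also carried Cre and the floxed alleles. Which of these holds for the 4 Yap1WT libraries was not settled here, so the effects of tamoxifen and of Yap1 loss cannot be told apart.

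Integrins are receptors made of 1 alpha and 1 beta chain that span the cell membrane and hold the cell to its matrix. Laminins are crossed assemblies of 1 alpha, 1 beta and 1 gamma chain that build the basement membrane on which an epithelium rests. In gut epithelia, integrin alpha6 with beta4 anchors hemidesmosomes on laminin-332, which holds the Lama3 and Lamb3 chains, and alpha3 with beta1 binds the same ligand and the Lama5 laminins. YAP1 is a transcriptional coactivator that acts through TEAD factors and responds to adhesion and stiffness.

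The RefSeq table of promoters (GRCm38.p6) held 24 windows for 21 of the 32 genes. The 250 bases before the start site are printed for Lama5, the chain called higher in Yap1KO, for Itgb5, whose Yap1KO libraries all lay above the Yap1WT libraries, and for Itgb1, the most abundant chain, whose level was nearly the same in both groups. Each is written 5′ to 3′ on the strand of the gene. Capitals mark GGAATG, a hexamer that TEAD factors bind, and the GC box GGGCGG, each on either strand.

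Lama5, chr2:180225860-180226109, - strand: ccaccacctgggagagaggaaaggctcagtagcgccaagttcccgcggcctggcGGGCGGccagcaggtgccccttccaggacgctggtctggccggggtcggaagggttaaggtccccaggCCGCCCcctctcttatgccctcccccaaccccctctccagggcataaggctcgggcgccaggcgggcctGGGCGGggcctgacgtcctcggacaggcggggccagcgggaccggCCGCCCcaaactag

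Itgb5, chr16:33829415-33829664, + strand: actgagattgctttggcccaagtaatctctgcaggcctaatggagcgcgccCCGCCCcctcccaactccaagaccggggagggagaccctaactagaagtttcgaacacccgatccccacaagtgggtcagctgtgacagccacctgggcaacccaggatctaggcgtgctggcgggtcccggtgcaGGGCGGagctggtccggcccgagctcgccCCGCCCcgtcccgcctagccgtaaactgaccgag

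Itgb1, chr8:128685404-128685653, + strand: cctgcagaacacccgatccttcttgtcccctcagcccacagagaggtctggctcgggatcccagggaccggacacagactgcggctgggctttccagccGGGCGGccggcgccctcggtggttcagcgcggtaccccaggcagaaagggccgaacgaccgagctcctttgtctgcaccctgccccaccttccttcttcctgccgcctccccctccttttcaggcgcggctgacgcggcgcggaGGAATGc

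The Lama5 window had a GC content of 72.4% and 4 GC boxes, the Itgb5 window 65.2% and 3, and the Itgb1 window 68.0% and 1. Of these windows, the GGAATG hexamer occurred in that of Itgb1, 7 bases before the start site, and the motifs did not overlap. Over the 24 windows, it occurred in 3 (12.5%, in Itga10, Itgb1 and Lamb3), against 12.6% of all 32851 windows in the table. The GC box occurred in 8 of the 24 (33.3%), against 32.7% of all windows. A match of letters is a description of the window and shows no binding.

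The libraries held 27607755 to 77483047 counts in Yap1WT and 18229945 to 74278015 in Yap1KO. Yap1 measured 73.9 ± 6.41 CPM in Yap1WT and 26.0 ± 3.76 CPM in Yap1KO (mean ± SD, n = 4 each), a 2.84-fold lower level (edgeR quasi-likelihood test, Benjamini-Hochberg adjusted p = 0.000209, with calls made below 0.05). Counts over the exons that the deletion leaves are part of this value. Epcam, the gene of the sort marker, was 1.69-fold higher in Yap1KO (adjusted p = 0.00188 in edgeR). Krt8 and Krt19, keratins of simple epithelia, were at 2133 CPM or more in every library, with log2 differences of -0.20 and -0.42. On the first principal component, Yap1KO replicate 4 lay at 66.84 and the other 7 libraries between -17.86 and 1.34. Xist, transcribed in females, was at 166 to 451 CPM in Yap1WT replicates 1 and 4 and Yap1KO replicate 4 and at most at 0.768 CPM in the others, so the groups held both sexes in unequal shares.

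Of the 26 chains tested, Lama5 rose and Itga7 fell in Yap1KO, and 24 did not pass the test. Thus edgeR called 1 of 26 higher, beside 3.54% of the 13495 genes tested, and 1 lower, beside 2.34%. The tools disagreed on how many more passed. DESeq2 called 6 higher (6.36% of all genes) and 1 lower (4.35%), and limma-voom called 4 higher (4.23%) and 1 lower (2.85%). Every Yap1KO library lay above every Yap1WT library for 5 chains (7.19% of all genes) and below for 1 (6.01%). The median log2 fold change was 0.27 over the 26 chains, 0.27 over the 18 integrin chains and 0.41 over the 8 laminin chains, against -0.01 over all genes tested. In a bulk library, fewer cells of a type and less RNA per cell cannot be told apart.

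**Figure D1:**
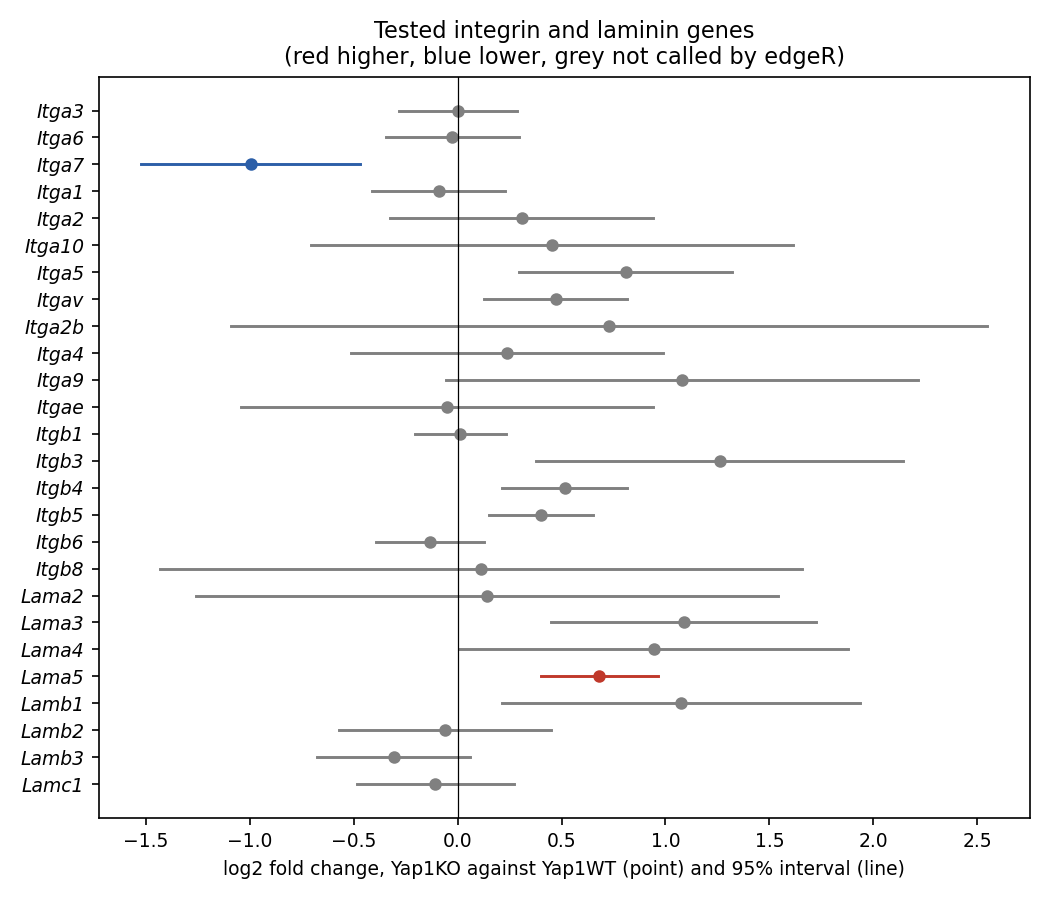
Log2 fold change (horizontal axis, Yap1KO against Yap1WT, edgeR, 4 libraries per group) of the 26 tested chains, with points for the estimate and lines for its 95% interval. Lama5 (red, 0.68) passed upwards and Itga7 (blue, -0.996) downwards, and Itgb1, Itga3 and Itga6 sit close to 0 with narrow intervals.

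The integrin chains of hemidesmosomes and of laminin binding were the most abundant per gene length. How gene length entered the deposited log2 RPKM values is not given in the sources used here. The ratio of CPM to these values gave a length of 11.5 kb for Lama5 and 4.2 kb for Itgb1, beside exon lengths of 11.39 and 4.08 kb in GENCODE, and over the 26 tested chains it was 0.285 to 1.03 times the exon length (median 0.788). On this scale, the Yap1WT means were 6.86 ± 0.09 for Itgb1, 6.68 ± 0.13 for Itga6, 5.79 ± 0.17 for Itgb4, 5.77 ± 0.21 for Itga3 and 5.26 ± 0.22 for Lamb3 (SD, n = 4). The same 5 chains led in Yap1KO in the same order. In Yap1WT, 24 of the 27 neighbouring pairs in the order of levels had overlapping ranges over the libraries, Itgb1 and Itga6 among them, and Itga6 stood above Itgb4 in all libraries. That order depends on the lengths used: the implied lengths were 4.19 kb for Itga6 and 6.2 kb for Itgb4, beside exon lengths of 9.03 and 7.01 kb. In Yap1KO, 22 of the 27 neighbouring pairs overlapped, and Itgb4 stood above Itga3 in all libraries. The lowest of the 28 chains with a deposited level was Lama1, at -5.29 ± 1.90 in Yap1WT.

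**Figure D2:**
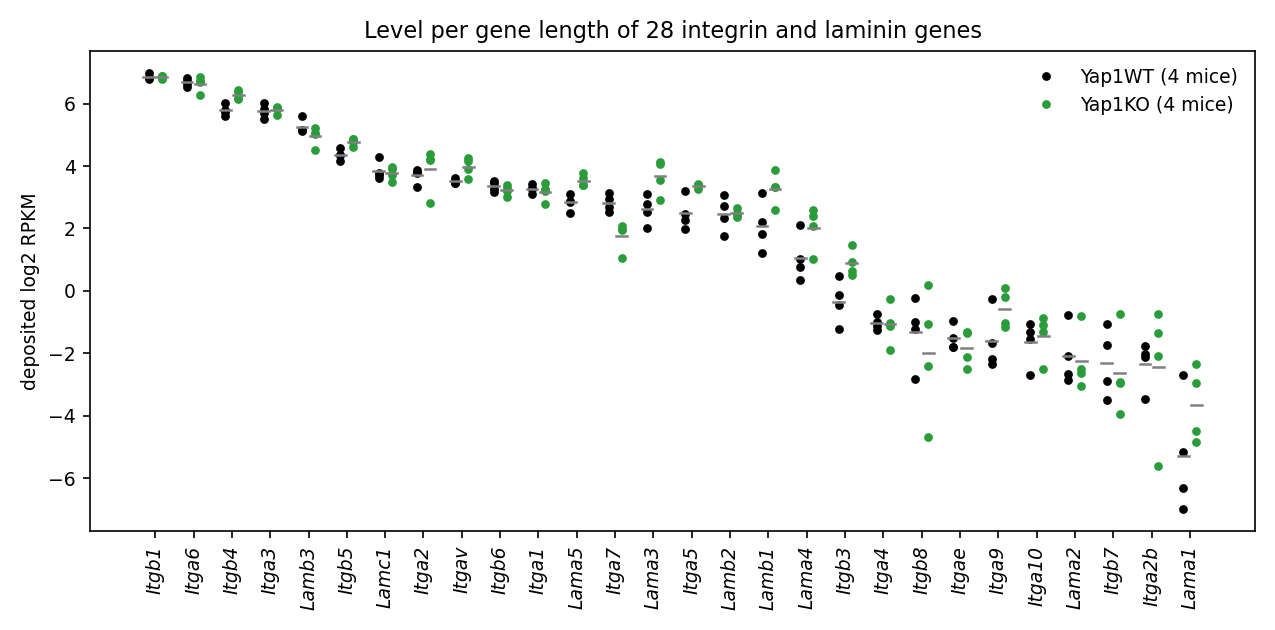
Deposited log2 RPKM (vertical axis) of the 28 chains that have a value, in order of their Yap1WT mean, with a point per mouse (black Yap1WT, green Yap1KO) and grey lines for means. The spread over mice widens from Itgb1 (SD 0.09 in Yap1WT) at the left to Lama1 (SD 1.90) at the right.

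Among the alpha chains that bind laminin, Itga7 fell and the far more abundant Itga6 and Itga3 did not pass the test. Itga7 (chr10:128933818-128958282, + strand, GRCm38) encodes the alpha7 chain, a laminin receptor best known from muscle. In the order of replicates 1 to 4, it measured 23.0, 35.8, 25.4 and 30.5 CPM in Yap1WT and 8.28, 17.5, 15.9 and 15.9 CPM in Yap1KO. The highest Yap1KO library lay below the lowest Yap1WT library, and Yap1KO replicate 1 was the lowest of all. The log2 fold change was -0.996 (SE 0.24, 95% interval -1.52 to -0.47, adjusted p = 0.0368 in edgeR, 0.0228 in limma-voom and 0.0012 in DESeq2). The edgeR call was lost without Yap1WT replicate 2 (adjusted p = 0.0907), 3 (0.0693) or 4 (0.0706) and without Yap1KO replicate 3 (0.0583) or 4 (0.0761), with the log2 fold change between -1.09 and -0.80 over all 8 omissions. Summed markers of smooth muscle cells and pericytes lay between 70.7 and 261 CPM over the Yap1WT libraries and between 86.7 and 387 CPM over the Yap1KO libraries, with 11 of 11 fold changes above 0 and 1 unadjusted p under 0.05. Their part in the Itga7 difference was not tested. The 3' end of Itga7 overlaps the antisense gene Mettl7b by 9 bases, and a small nuclear RNA gene lies within it.

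Itga6, the partner of beta4, measured 429.9, 387, 430.5 and 475 CPM in Yap1WT and 508, 317, 413 and 455 CPM in Yap1KO. The groups overlapped, with Yap1KO replicates 1 and 2 the highest and the lowest of all 8 libraries. The log2 difference was -0.02 (95% interval -0.35 to 0.30), and that of Itga3, the main alpha partner of beta1 on laminins, was 0.00 (-0.28 to 0.29).

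The collagen receptors gave no call. Itga2, which encodes alpha2 and was the most abundant of them per length, measured 58.8, 42.3, 58.8 and 62.9 CPM in Yap1WT and 89.2, 29.8, 75.9 and 81.0 CPM in Yap1KO. Of the Yap1KO libraries, 3 lay above all of Yap1WT and replicate 2 below all of them, and the log2 difference was 0.31 (95% interval -0.32 to 0.94, adjusted p = 0.605 in edgeR). Itga1 differed by -0.09 (-0.41 to 0.23) and the scarce Itga10 by 0.45 (-0.70 to 1.61). Itga11 did not pass the filter.

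Of the chains that bind the RGD motif of fibronectin and vitronectin, none passed in edgeR, and Itga5 and Itgav had log2 differences above 0 whose 95% intervals did not reach it. Itga5, the fibronectin receptor chain, measured 23.9, 21.5, 16.8 and 40.5 CPM in Yap1WT and 41.5, 45.1, 46.9 and 46.0 CPM in Yap1KO. The groups did not overlap, but Yap1WT replicate 4 came within 1 CPM of the lowest Yap1KO library. The log2 fold change was 0.81 (SE 0.23, adjusted p = 0.0749 in edgeR, 0.0134 in limma-voom and 0.0113 in DESeq2). Without Yap1WT replicate 4 it was 1.11 (adjusted p = 0.0033 in edgeR). That was the 1 pass over the 8 omissions of 1 library, where the edgeR adjusted p reached 0.158.

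Itgav, whose alphav chain pairs with several beta chains, measured 75.8, 77.5, 89.9 and 81.6 CPM in Yap1WT and 128, 81.6, 103 and 138 CPM in Yap1KO. Yap1KO replicate 2 lay among the Yap1WT libraries and the other 3 above them. The log2 difference was 0.47 (95% interval 0.13 to 0.82, adjusted p = 0.113 in edgeR), and it was 0.61 without Yap1KO replicate 2 (adjusted p = 0.0166 in edgeR). Itgav passed in this 1 of the 8 omissions, over which the edgeR adjusted p reached 0.249. Itga2b, the platelet chain, stayed at or below 2.50 CPM in every library with a log2 difference of 0.73 (-1.09 to 2.55) that turned to -0.33 in limma-voom, and Itga8 did not pass the filter.

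Of the alpha4 and alpha9 branch and the alphaE chain, none passed. Itga4, known from leukocytes, measured 4.79, 4.18, 4.97 and 4.32 CPM in Yap1WT and 4.70, 5.44, 8.66 and 2.60 CPM in Yap1KO. Both the highest and the lowest value came from Yap1KO. Itgae, the receptor chain of intraepithelial lymphocytes for E-cadherin, lay between 0.968 and 2.43 CPM in Yap1WT and between 0.862 and 2.18 CPM in Yap1KO. Itga9 had a log2 difference of 1.08 (95% interval -0.06 to 2.21, adjusted p = 0.273 in edgeR), with Yap1WT replicate 4 at 5.70 CPM and the other Yap1WT libraries at 1.38 to 1.66 CPM. Without that library it was 1.80 (adjusted p = 0.0287 in edgeR), the 1 pass over the 8 omissions, where the edgeR adjusted p reached 0.511.

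Of the beta chains, Itgb4, Itgb5 and Itgb3 lay higher in every Yap1KO library, and Itgb1 did not separate the groups. Itgb1, the shared partner of most alpha chains, measured 467, 453, 484 and 543 CPM in Yap1WT and 494, 462.2, 479.6 and 529.9 CPM in Yap1KO. The groups overlapped nearly in full, and the log2 difference was 0.01 (95% interval -0.21 to 0.23). Itgb6, the epithelial partner of alphav, differed by -0.13 (-0.39 to 0.13), and Itgb8 by 0.11 with an interval of -1.43 to 1.66.

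Itgb4 (chr11:115974709-116008412, + strand, GRCm38), the hemidesmosome chain, measured 334, 301, 336 and 408 CPM in Yap1WT and 569.5, 429.6, 433 and 539 CPM in Yap1KO. The lowest Yap1KO library lay above the highest Yap1WT library, which was replicate 4. The log2 fold change was 0.52 (SE 0.14, adjusted p = 0.0537 in edgeR, 0.0254 in limma-voom and 0.00542 in DESeq2). It passed in edgeR with upper quartile factors (0.0418) and with a term for the series of mouse numbers (0.0458). Of the 8 omissions of 1 library, it passed in 2, without Yap1WT replicate 4 (0.036) and without Yap1KO replicate 2 (0.0402). Over these omissions the edgeR adjusted p reached 0.153. The call of Itgb4 thus depended on the tool, the scaling, the covariate and the libraries. A long noncoding RNA gene, B230344G16Rik, runs antisense over 5664 bases of Itgb4, and the library kit did not keep strand.

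Itgb5, a vitronectin receptor chain, measured 77.9, 59.3, 67.8 and 66.9 CPM in Yap1WT and 97.0, 86.4, 78.4 and 97.4 CPM in Yap1KO. The gap between the groups was narrow, with 77.9 CPM in Yap1WT replicate 1 and 78.4 CPM in Yap1KO replicate 3. The log2 fold change was 0.40 (SE 0.11, adjusted p = 0.0709 in edgeR, 0.0618 in limma-voom and 0.0324 in DESeq2).

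Itgb3, which pairs with alphav on vascular cells and with alphaIIb on platelets, measured 5.20, 4.25, 1.83 and 7.58 CPM in Yap1WT and 8.28, 11.3, 16.36 and 8.91 CPM in Yap1KO. Again Yap1WT replicate 4 was the closest of its group to Yap1KO. The log2 fold change was 1.26 (SE 0.40, adjusted p = 0.102 in edgeR, 0.0344 in limma-voom and 0.0186 in DESeq2). Itgb2 and Itgb7, the leukocyte beta chains, did not pass the filter.

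**Figure D3:**
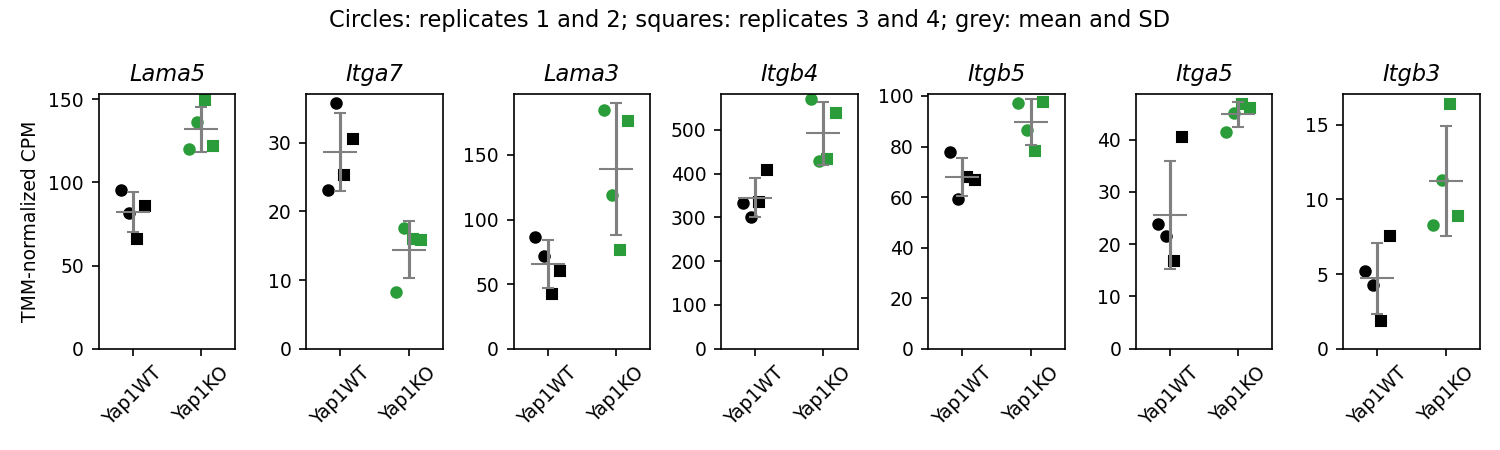
TMM-normalized CPM (vertical axes, from 0) of the 7 chains that edgeR, limma-voom or DESeq2 called, with a point per mouse (black Yap1WT, green Yap1KO, squares for replicates 3 and 4) and grey bars for mean and SD. Lama5, Itga5, Itgb3, Itgb4 and Itgb5 do not overlap upwards and Itga7 downwards, whereas Lama3 overlaps at 76.4 CPM in Yap1KO replicate 3 and 86.7 CPM in Yap1WT replicate 1.

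Of the laminin chains, Lama5 rose, Lama3 had the largest log2 difference without passing in edgeR as designed, and Lamb3 and Lamc1 lay below 0 without passing. Lama5 (chr2:180176373-180225859, - strand, GRCm38), whose promoter is printed above, encodes the alpha chain of laminin-511 and laminin-521 of adult epithelia and vessels. It measured 95.2, 81.8, 66.1 and 85.9 CPM in Yap1WT and 120.2, 136, 149 and 122 CPM in Yap1KO. Every Yap1KO library lay above every Yap1WT library, with Yap1WT replicate 3 the lowest and Yap1KO replicate 3 the highest. The level was 1.60-fold higher (log2 fold change 0.68, SE 0.13, 95% interval 0.40 to 0.96, adjusted p = 0.0117 in edgeR and 0.0134 in limma-voom). The edgeR call held without any 1 of the 8 libraries, at adjusted p values of 0.0129 to 0.0313, and at 0.0245 without Yap1KO replicate 4.

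Lama3, the alpha chain of laminin-332, measured 86.7, 72.0, 42.6 and 60.4 CPM in Yap1WT and 184.5, 119, 76.4 and 177 CPM in Yap1KO. Yap1KO replicate 3 lay below Yap1WT replicate 1, and the other 3 Yap1KO libraries above all of Yap1WT. The log2 fold change was 1.09 (SE 0.29, adjusted p = 0.0553 in edgeR, 0.0642 in limma-voom and 0.00121 in DESeq2), and 1.30 without Yap1KO replicate 3 (adjusted p = 0.0174 in edgeR). That was the 1 pass over the 8 omissions of 1 library, where the edgeR adjusted p reached 0.142. Lama3 also passed in edgeR with a term for the series of mouse numbers (0.0302) and without the filter (0.0449).

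Lamb3, the beta chain of laminin-332, measured 193, 146, 146 and 148 CPM in Yap1WT and 153, 133, 89.6 and 135 CPM in Yap1KO. Here 3 of the Yap1KO libraries lay below all of Yap1WT, while replicate 1 lay above 3 of them. The log2 difference was -0.31 (95% interval -0.68 to 0.06, adjusted p = 0.340 in edgeR). Hsd11b1 and G0s2 overlap Lamb3 on the other strand.

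Lama4 and Lamb1 are chains of vessel and stromal laminins, and Lamb1 also assembles with Lama5. Their log2 differences were 0.94 (95% interval 0.01 to 1.88, adjusted p = 0.240 in edgeR) and 1.07 (0.21 to 1.94, adjusted p = 0.148 in edgeR). Lamb1 spanned 12.6 to 51.0 CPM over the Yap1WT libraries and 35.0 to 82.7 CPM over the Yap1KO libraries, with replicate 4 the highest of Yap1WT. Without Yap1WT replicate 4, the Lamb1 log2 fold change was 1.54 (adjusted p = 0.0255 in edgeR). This was the 1 pass of Lamb1 over the 8 omissions of 1 library, where the edgeR adjusted p reached 0.284. Lamc1, the gamma chain of most laminins, measured 102, 98.7, 96.2 and 152 CPM in Yap1WT and 101, 83.3, 111 and 122 CPM in Yap1KO. Its groups overlapped, with a log2 difference of -0.11 (-0.48 to 0.27). Lamb2 differed by -0.06 (-0.57 to 0.45) and Lama2, below 6.14 CPM throughout, by 0.14 (-1.26 to 1.54). The 6 chains under the filter, Itga8, Itga11, Itgb2, Itgb7, Lama1 and Lamc3, reached at most 2.88 CPM in any library.

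Chains that assemble with each other were compared within each library on the log2 RPKM scale, as a description with no test. Itgb4 minus Itga6 was -0.91 to -0.80 in Yap1WT and -0.49 to -0.13 in Yap1KO, without overlap. The beta4 chain thus stood higher relative to its only alpha partner in each Yap1KO library. Whether it came closer to that partner or passed it depends on the gene lengths used. The deposited values implied 4.19 kb for Itga6 and 6.2 kb for Itgb4, beside exon lengths of 9.03 and 7.01 kb. In CPM, Itgb4 lay below Itga6 in every Yap1WT library and above it in every Yap1KO library. Lamb3 minus Lama3 was 2.37 to 3.11 in Yap1WT and 0.95 to 1.61 in Yap1KO, again with no overlap. The group means differed by 0.54 for the integrin pair and by -1.36 for the laminin pair. The differences of Itgb1 with Itga3 and with Itga2, of Itgb6 with Itgav and of Lamb1 with Lama5 overlapped between the groups.

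**Figure D4:**
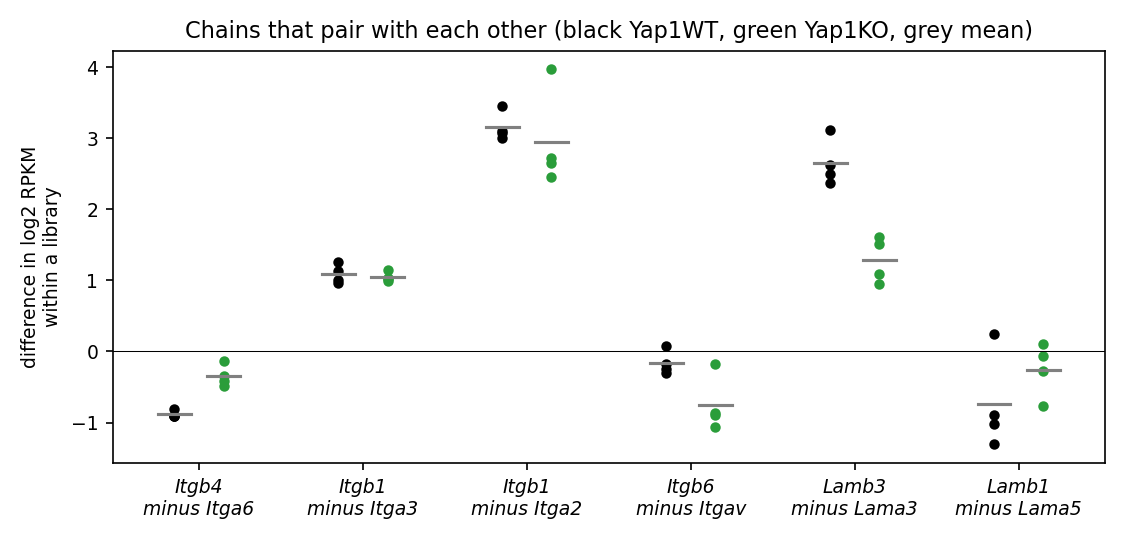
Difference in log2 RPKM between 2 chains of a pair within each library (vertical axis), with a point per mouse (black Yap1WT, green Yap1KO) and grey lines for means. The groups separate for Itgb4 minus Itga6 (means -0.88 and -0.35) and for Lamb3 minus Lama3 (2.65 and 1.29) and overlap for the other 4 pairs.

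As shares of linear RPKM within a class, Itgb1 made up 56.9% ± 1.51 of the beta integrin signal in Yap1WT and 49.6% ± 2.24 in Yap1KO, and Itgb4 27.2% ± 1.19 and 33.5% ± 1.90 (SD, n = 4). Lamb3 made up 78.8% ± 7.61 of the beta laminin signal in Yap1WT and 66.2% ± 9.73 in Yap1KO, and Lamb1 9.52% ± 4.90 and 21.8% ± 8.89. The alpha laminin signal came mostly from Lama5 (45.1% ± 4.17 and 39.6% ± 8.56) and Lama3 (38.8% ± 6.07 and 44.3% ± 13.1). These shares sum to the whole in each class, so a rise of 1 chain lowers the others, and they were not tested.

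Around the chains, 8 genes of the pathway lists rose and 5 fell in edgeR. Over all genes tested, 3.54% were called higher and 2.34% lower, and these shares also stand beside the counts of each list below. The lists were chosen with earlier results of these data known. Of 14 tested basement membrane partners, 2 rose and none fell, with a median log2 fold change of 0.98. They were Agrn, the proteoglycan agrin that binds laminin (58.2 ± 3.37 CPM in Yap1WT and 98.9 ± 10.7 in Yap1KO, SD, n = 4, adjusted p = 0.0019), and Col18a1, the core of collagen XVIII (321 ± 85.1 and 619 ± 30.4 CPM, adjusted p = 0.00843). Col4a1, the main collagen of basement membranes, had a log2 difference of 1.29 and an adjusted p of 0.107. Of 20 other integrin ligands, 2 rose and 2 fell, with a median of 0.59. Spp1 (osteopontin, a ligand of alphav integrins) rose by 1.94 on the log2 scale and Thbs1 (thrombospondin 1) by 1.25, at edgeR adjusted p values of 0.0081 and 0.0111. Tnn, encoding tenascin N, fell by 2.38 and Npnt, the ligand of alpha8 integrin, by 0.95 on the same scale, at 0.0019 and 0.0232.

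Inside the cell, 2 of 28 adhesion adaptors and kinases rose and 3 fell, with a median log2 fold change of 0.17. Tns4, a tensin that binds beta integrin tails, measured 85.9 ± 18.7 CPM in Yap1WT and 207 ± 18.2 CPM in Yap1KO (edgeR adjusted p = 0.00132). Fermt2 (kindlin-2, an integrin activator) rose by 1.29 on the log2 scale (adjusted p = 0.0258 in edgeR). Among those that fell, the actin linkers Tln2 (talin 2) and Parva (alpha-parvin) fell by 1.26 and 0.42 on the log2 scale, at edgeR adjusted p values of 0.00975 and 0.0445.

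Of 5 tested hemidesmosome partners, none was called by edgeR, limma-voom or DESeq2, and 0 had an unadjusted p under 0.05 in edgeR. Their median log2 fold change was -0.01, with -0.26 for Plec (plectin, which ties Itgb4 to keratins), 0.39 for Dst and 0.01 for the tetraspanin Cd151. The median was the value of Krt14 (95% interval -2.12 to 2.11). Krt14 and Krt5 (-0.15, -1.94 to 1.63) are also in the list of squamous and basal markers. Of 8 tested processing enzymes, Furin, a protease that cleaves integrin alpha chain precursors, rose from 116 ± 17.4 to 249 ± 30.8 CPM (SD, n = 4, adjusted p = 0.00131 in edgeR). Mmp14, a membrane protease that cleaves laminin-332, rose from 53.8 ± 10.5 to 85.9 ± 8.92 CPM (adjusted p = 0.026 in edgeR). Of 4 tested further integrin and laminin genes, 0 passed in edgeR, 1 had an unadjusted p under 0.05 there, and 1 passed in limma-voom and 1 in DESeq2.

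Markers of vessels and stroma had median log2 fold changes above 0 and mostly did not pass in edgeR. Of 14 endothelial markers, 14 had a fold change above 0, with a median log2 fold change of 1.22. The endothelial calls, all higher, were 1 (Tie1) in edgeR, 10 in limma-voom and 7 in DESeq2. In edgeR, 12 of the 14 had an unadjusted p under 0.05. The Yap1WT libraries summed to 209 to 755 CPM over this list and the Yap1KO libraries to 652 to 1338 CPM, led by Plvap (123 ± 81.1 and 322 ± 80.7 CPM, SD, n = 4) and Pecam1 (50.4 ± 25.2 and 117 ± 38.8 CPM). Of 15 fibroblast markers, 12 lay above 0, with a median of 0.63 and 0 calls by edgeR, limma-voom or DESeq2 (1 with an unadjusted p under 0.05), and the Yap1WT libraries summed to 172 to 1092 CPM and the Yap1KO libraries to 457.2 to 1389 CPM. By the mean of the 8 libraries, Col3a1 and Col1a1 were the most abundant fibroblast markers, and Acta2 and Tagln those of smooth muscle cells and pericytes. In the last list, Notch3, named after its values were seen, measured 14.1 ± 6.03 CPM in Yap1WT and 28.8 ± 6.04 CPM in Yap1KO without overlap (SD, n = 4) and passed in limma-voom (adjusted p = 0.00971) and DESeq2 (0.00307). No marker of these 3 lists was at 0 in all libraries.

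Yap1WT replicate 4 carried more of these markers than the other Yap1WT libraries, 2.54 times their mean for endothelial cells, 3.32 for fibroblasts and 3.32 for smooth muscle cells and pericytes. The same ratio was 3.66 for Itga9, 3.53 for Lama2, 2.63 for Lama4, 2.55 for Lamb1, 2.36 for Itgb8, 2.02 for Itgb3, 1.96 for Itga5, 1.69 for Lamb2 and 1.53 for Lamc1. Of these, Itgb8, Lama2, Lamb2 and Lamc1 had log2 differences of 0.11, 0.14, -0.06 and -0.11. The ratio was 1.06 for Lama5, 1.09 for Itga7, 1.26 for Itgb4, 0.98 for Itgb5 and 0.90 for Lama3. For the epithelial markers it was 1.165, and for Itgb1 1.16. Yap1KO replicate 1, whose endothelial sum of 652 CPM was below the 755 CPM of Yap1WT replicate 4, held Lama5 at 120.2 CPM against 85.9 CPM there. Every other Yap1KO library lay above all Yap1WT libraries both in this sum (971 to 1338 CPM) and in Lama5 (122 to 149 CPM). The part of vessel and stromal cells in the differences of the chains was not tested.

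**Figure D5:**
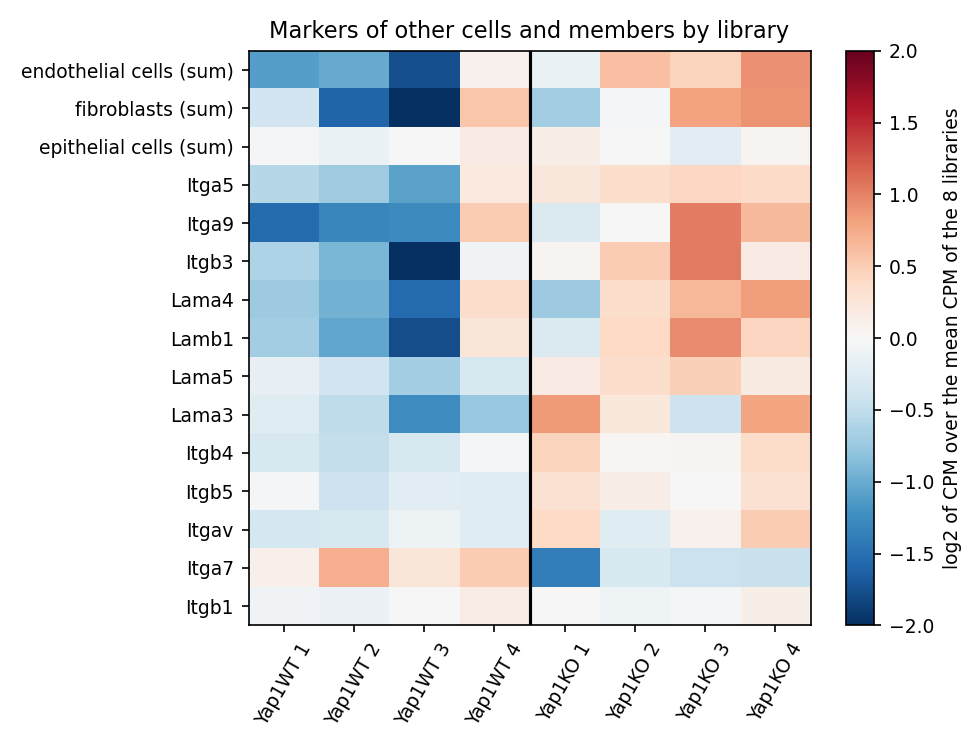
Log2 of CPM over the mean of the 8 libraries (colour, red above and blue below) for summed markers of endothelial cells, fibroblasts and epithelial cells and for 12 chains (rows), by library (columns, Yap1WT left of the line). Itga5, Itga9, Itgb3, Lama4 and Lamb1 share with the vessel and stromal sums a Yap1WT replicate 4 above the other Yap1WT libraries. The epithelial sum (0.169) and Itgb1 (0.151) are also highest of Yap1WT in that library, by less. Lama5, Lama3, Itgb4 and Itgb5 are below their mean or near it in all Yap1WT libraries, and for Itgb4 replicate 4 is also the highest of Yap1WT (-0.039).

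Blood cells gave little signal. The Yap1WT libraries held 41.3 to 60.7 CPM of leukocyte markers and the Yap1KO libraries 47.7 to 63.2 CPM. Kit and Ptprc were the most abundant by the mean of the 8 libraries, and Cd8a was at 0 in all libraries. Of 22 leukocyte markers, 7 were tested, 3 above 0 and 4 below, with a median log2 fold change of -0.47. In edgeR, Cd68 was the 1 gene called higher and 0 were called lower. Unadjusted p in edgeR was under 0.05 for 2 higher and 1 lower. Platelet markers summed to at most 20.7 CPM, with 1 of 8 tested (Ppbp, with Pf4 next by that mean) and Gp6 and Treml1 at 0 in all libraries. Erythroid markers (Hba-a2 and Hba-a1 the most abundant) summed to at most 63.5 CPM and nerve and glial markers (led by S100b) to at most 32.9 CPM, with no call in either list by edgeR, limma-voom or DESeq2. Squamous and basal markers (Krt5 and Krt13 the most abundant by that mean) summed to 31.9 to 119.9 CPM over the Yap1WT libraries and 35.4 to 109 CPM over the Yap1KO libraries. Epithelial markers gave 2 calls higher (Epcam and Cldn4) and 0 lower of 10 tested in edgeR, with a median log2 fold change of 0.12. Of these markers, 5 lay above 0 and 5 below. Krt19 was 1.33-fold lower in Yap1KO without overlap (adjusted p = 0.1 in edgeR and 0.00941 in DESeq2). Foveolar markers (Gkn1 and Gkn2 the most abundant by the mean of the 8 libraries) gave 1 call higher and 3 lower of 10 tested with a median of -0.81. Dissociation stress genes, led by Fos and Jun, had a median of 0.26 over 10 tested, with 0 calls in edgeR and limma-voom, 1 in DESeq2 and 1 unadjusted p under 0.05.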

How the data were processed

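EpCAM+ cells from antral tumors of 8 mice were sequenced with a TruSeq RNA kit that does not mark strand. Per the study's methods, the authors aligned paired-end reads to GRCm38 (mm10) with Subread and deposited whole-number counts per gene from featureCounts with a RefSeq annotation. The authors also deposited log2 values per gene length and library size (log2 RPKM here), quantile normalized with voom in limma. 6 columns of the count table match no sample and were not used. Unnamed entries (1277, 0.552 to 0.789% of counts) and 762 pseudogenes were left out. Genes over 0.5 CPM in at least 6 libraries were tested on the counts with edgeR 4.0.16 (TMM, quasi-likelihood test, two-sided, Benjamini-Hochberg over all genes, threshold 0.05) in R 4.3.3. limma 3.58.1 and DESeq2 1.42.0 were alternatives, and the scripts were tested on simulated data. P-values measure the spread between mice. The members and lists were chosen with earlier results of these data known. Values in every library are given for chains called by any tool and for the most abundant of each role, and list genes are named when called or most abundant. Positions come from GENCODE M21 and promoters from RefSeq (GRCm38.p6). The deposited counts do not say how overlapping genes were split. Replicate numbers were not treated as pairs. Some genes of the lists are not reported here by name.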

Additional observations from a re-analysis of the deposited data

Results flagged for a closer look

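In 5 of the 52 groups of 4 libraries examined over the 26 chains, 1 library lay far from the others of its group. For independent, normally distributed values, chance alone sets about 1 in 20 such groups apart. Whether these CPM values meet that was not tested, and several of the groups share the same far library. In Yap1WT replicate 4, Itga9 was at 5.70 CPM (others 1.38 to 1.66), Lama2 at 5.44 CPM (others 1.42 to 1.70) and Lamc1 at 152 CPM (others 96.2 to 102). That library also held the highest summed endothelial and fibroblast markers of Yap1WT, 755 and 1092 CPM. Lamb3 was at 193 CPM in Yap1WT replicate 1 (others 146 to 148), the library with the highest sum of squamous and basal markers, 119.9 CPM. Yap1KO replicates 4 and 2, with sums of 109 and 91.5 CPM, held Lamb3 at 135 and 133 CPM. Lama2 was at 6.14 CPM in Yap1KO replicate 3 (others 1.05 to 1.92). The part of these cell types in the values was not tested.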

How the results depend on the processing

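The number of chains called higher was 1 with edgeR and also with relative log expression factors or a filter at 4 libraries. It was 4 with limma-voom, 6 with DESeq2 (858 of all 13495 genes), 5 with the replicate block (Itga5, Itgb4, Itgb5, Lama3 and Lama5; 756 of all genes), 3 with a term for the series of mouse numbers (Itgb4, Lama3 and Lama5; 598 of all), 2 with upper quartile factors (Itgb4 and Lama5; 477 of all), 2 without a filter (Lama3 and Lama5; 466 of 19865), 2 with limma on the deposited log2 values (Itgb4 and Lama5; 459 of 13819), and 1 to 5 when 1 library was left out. It was 5 without Yap1WT replicate 4 (Itga5, Itga9, Itgb4, Lama5 and Lamb1; 490 of 13241), 3 without Yap1KO replicate 2 (Itgav, Itgb4 and Lama5; 485 of 13157) and 2 without Yap1KO replicate 3 (Lama3 and Lama5; 369 of 13169). Lama5 was called in each of these fits. The number called lower was 1, Itga7, in each of them except 5 of the omissions (range 0 to 1). The lists around the chains gave 8 genes higher with edgeR and 15 with limma-voom and with DESeq2, and 5 lower with edgeR, 5 with limma-voom and 6 with DESeq2. The replicate block called 553 genes lower over all genes, against 316 without it. Same-numbered libraries correlated at 0.078, 0.404, 0.113 and 0.214 in their deviations from the group means, all above 0. The other combinations ran from -0.301 to 0.276, and not every library correlated best with its own number. The labels name no pairs, so the numbers were not taken as pairs. Whether same-numbered libraries share a source of variation was not tested. The sign of some uncalled log2 differences turned: Itga3 (-0.0002 with the filter at 4 libraries), Itga2b (-0.33 with limma-voom, -0.11 on the deposited log2 values), Itga4 (-0.051 on the deposited values), Itgb1 (-0.008 and -0.0075 in the same order as Itga2b), Itgb8 (-0.65, -0.67 and, with the replicate block, -0.19), Lama2 (-0.15 on the deposited values) and Lamb2 (0.057, 0.022 and, with the replicate block, 0.0095). When 1 library was left out, Itga3 ran from -0.076 to 0.10, Itga6 from -0.12 to 0.10, Itga1 from -0.18 to 0.038, Itga4 from -0.10 to 0.46, Itgae from -0.28 to 0.26, Itgb1 from -0.023 to 0.071, Itgb8 from -0.65 to 0.51, Lama2 from -0.65 to 0.83, Lamb2 from -0.24 to 0.17 and Lamc1 from -0.19 to 0.073. Of 436 values of single chains over the alternatives, 372 kept their direction and side of the threshold, 24 newly passed, 5 no longer passed and 35 turned. The cause was not tested. The 4 libraries per group limit what could be called: the interval of Itgb8 spans -1.43 to 1.66.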
